A study of Rattus norvegicus with 6 samples.

Results

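The liver expresses many miRNAs besides miR-122, the hepatocyte miRNA best known in blood. The 8 described here are rno-miR-193, rno-miR-365, rno-miR-378, rno-miR-101b, rno-miR-101a, rno-miR-148b-3p, rno-miR-455 and rno-miR-802, written below without the rat prefix. They were chosen by name as hepatocyte miRNAs other than miR-122, miR-192 and miR-22, with no signal entering the rule, and all 8 were found among the 677 miRNAs of a rat Agilent array. RNA came from plasma of male Wistar rats 24 h after an injection into the peritoneum, of 0.9% saline in the 3 vehicle animals and of thioacetamide at 100 mg/kg, dissolved in the same saline, in the 3 treated animals. Hepatocytes turn thioacetamide into reactive metabolites that injure the liver, and the series looked for plasma miRNAs that mark this injury. Each animal had 1 single-colour array, and plasma rather than liver was measured, so the tissue that released a miRNA was not observed.

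A miRNA is cut from a hairpin precursor and loaded into an Argonaute protein, where bases 2 to 8 of the mature strand, the seed, select the messenger RNAs it represses. Injured hepatocytes release their miRNAs into blood, where protein or vesicle carriers protect them from degradation. In plasma RNA, more cells releasing a miRNA and more of it released per cell cannot be told apart.

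The mature strands are shown with the seed in capitals, because the seed decides which of the 8 share targets. They come from RefSeq on the rat assembly GRCr8, matched by the array's probe sequences, and 6 of the 8 had an entry.
miR-193: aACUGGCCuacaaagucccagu
miR-365: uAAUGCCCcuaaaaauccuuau
miR-378: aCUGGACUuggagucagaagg
miR-101b: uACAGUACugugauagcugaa
miR-101a: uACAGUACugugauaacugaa
miR-148b-3p: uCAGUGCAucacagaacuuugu
RefSeq names the first 3 miR-193a-3p, miR-365-3p and miR-378a-3p. miR-101a and miR-101b have the same seed and differ at 1 base, A16G, counted from the 5′ end (miR-101a has A and miR-101b has G). miR-148b-3p shares its seed with miR-152, the only other seed match to a member on the array outside the 8. The seeds of miR-193, miR-365 and miR-378 occur in no other miRNA of the array for which a sequence was matched.

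The array reads each miRNA through short DNA probes that pair with its 3′ end. For 7 of the 8 there was a pair of probes, the longer being the shorter plus 1 base, with 10 spots of each. miR-455 had a single probe with 20 spots. The longer probes of the 4 miRNAs on which the results turn are given 5′ to 3′ with the added base in capitals.
miR-193: actgggactttgtaggC
miR-365: ataaggatttttaggggcatT
miR-378: ccttctgactccaA
miR-101b: ttcagctatcacagtactG
These probes pair with bases 6 to 22 of miR-193, 2 to 22 of miR-365, 8 to 21 of miR-378 and 3 to 21 of miR-101b. In the rat build rn4, as the scanner files map them, the longer probes of miR-193 and miR-365 lie at chr10:65901107-65901122 and chr10:65915004-65915023, with 13882 bases between the mapped probes of the pair of miRNAs. Those of miR-378 and miR-101b lie at chr18:57377854-57377866 and chr1:232779647-232779664. By gene spans in GRCr8, which do not separate exons from introns, miR-193 and miR-365 lie within Faul2, miR-378 within Ppargc1b, miR-101b within Rcl1, miR-148b-3p within Copz1 and miR-101a within LOC120102934.

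Of the 677 miRNAs, 99 (14.6%) were well above background on any array, and 59 on at least 3 of the 6; only these 59 were tested. The lowest signal that counted as well above background differed between arrays: 18.7 intensity units on vehicle 1, 138 on vehicle 2, 155 on vehicle 3, 437 on thioacetamide 1, 41.2 on thioacetamide 2 and 47.0 on thioacetamide 3. Vehicle 2, vehicle 3 and thioacetamide 1 lay in columns 1 and 2 of the slide and the other 3 arrays in columns 3 and 4, so that each side held both groups. Over the 1422 probes of other miRNAs detected on no array, the signals of the 3 arrays in columns 1 and 2 correlated with one another at Pearson's r of 0.973 to 0.984, and with those of columns 3 and 4 at 0.606 to 0.805. Within columns 3 and 4, thioacetamide 2 and 3 correlated at 0.907, and vehicle 1 correlated with them at 0.816 and 0.795. With the arrays of columns 1 and 2 vehicle 1 correlated about as closely, at 0.780 to 0.805. These correlations are across probes and describe the arrays' shared background. Of the marker lists, the summed scaled signal of 12 hepatocyte miRNAs outside the 8 was 504 to 602 in vehicle and 13338 to 42572 in treated plasma, and that of 8 erythrocyte miRNAs was 10673 to 13736 and 6313 to 6596. The largest part of the treated hepatocyte sum was miR-122 (mean log2 signal 14.04). That of the erythrocyte sums was miR-451 (12.95 in vehicle and 11.64 in treated plasma). Neither sum therefore describes every miRNA of its list. No miRNA of the 6 on the muscle and heart list was detected.

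Detection divided the 8 miRNAs. miR-193 was detected on all 3 thioacetamide arrays, and miR-365, miR-378 and miR-101b on thioacetamide 2 and 3. miR-101a, miR-148b-3p, miR-455 and miR-802 were detected on none. No vehicle array detected any of the 8. Detection on 0 vehicle arrays and at least 2 thioacetamide arrays was found for 17 of the 677 miRNAs (2.51%), or 17.2% of the 99 detected on any array, and these 4 are among the 17. Counted by spot, 31 of 56 unmarked spots of miR-193, 33 of 60 of miR-365, 38 of 57 of miR-378 and 24 of 55 of miR-101b were well above background on the treated arrays, against 0 of 59, 0 of 55, 0 of 59 and 0 of 60 on the vehicle arrays. Spots of an array are not replicates. The lowest signal well above background was higher on vehicle 2 and 3 (138 and 155) than on thioacetamide 2 and 3 (41.2 and 47.0). The longer probe of miR-365, detected at 90.8 on thioacetamide 2, would thus not count on vehicle 2 or 3. Of the vehicle arrays only vehicle 1, at 18.7, had a lower limit than thioacetamide 2 and 3.

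**Figure D1:**
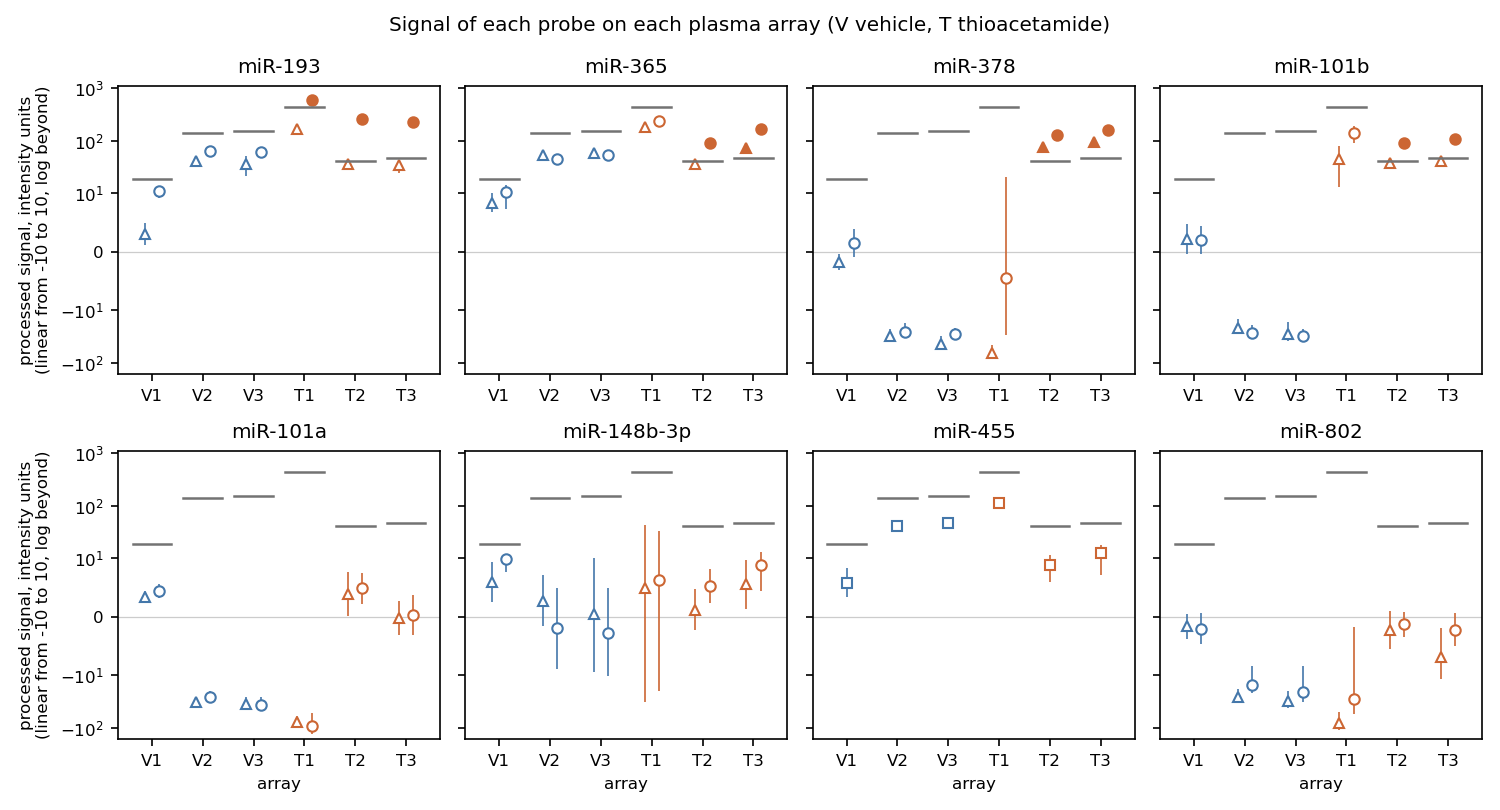
Mean processed signal of each probe of the 8 miRNAs on each array, in intensity units, on an axis that is linear from -10 to 10 and logarithmic beyond; triangles are shorter probes, circles longer ones, squares the single probe of miR-455, bars the SD over spots, filled marks probes detected on that array, and grey lines the lowest signal well above background there. Filled marks appear only on thioacetamide arrays (T1 to T3) and only for miR-193, miR-365, miR-378 and miR-101b.

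miR-193, a liver-enriched miRNA, was the only one of the 8 detected on enough arrays to be tested, and it met that filter through the 3 treated arrays alone. Its test is therefore of a miRNA admitted by the group in which it was high, and neither its direction nor its passes are support beyond the values given. Its longer probe read 11.1, 62.9 and 61.8 intensity units on vehicle 1 to 3 and 597, 257 and 227 on thioacetamide 1 to 3. All 3 treated arrays were higher than all 3 vehicle arrays. Its shorter probe read 3.06, 41.1 and 36.3 on the vehicle arrays and 170.5, 36.5 and 33.9 on the treated ones, where thioacetamide 2 and 3 fell within the vehicle range. On vehicle 1 to 3 the longer probe lay at the 99.0th, 93.4th and 92.1st percentile of the probes of never-detected miRNAs on the same array, and on each of the 3 treated arrays it lay above all 1422 of them.

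For the comparison, the probe means were summed, scaled to the 75th percentile of the probes detected on all arrays, raised to a floor of 46.1 and taken to log2. The scaled sum of miR-193 was 15.1, 134 and 157 in vehicle plasma and 338, 378.2 and 209 in treated plasma. The groups did not overlap, as for 27 of the 677 miRNAs (3.99%) in the higher direction. Among the 59 tested miRNAs, to which miR-193 belongs, the log2 signals were so separated for 16 (27.1%). On the log2 scale the level was 6.63 ± 0.96 in vehicle and 8.22 ± 0.46 in treated plasma (SD, n = 3 per group). The difference was 1.59 ± 0.58 (SE, 95% interval 0.21 to 2.98), and it did not pass limma's fit over the 59 tested miRNAs (adjusted p = 0.103, unadjusted p = 0.0303). Of the tested members 0 of 1 therefore passed, where 10 of the 59 tested miRNAs (16.9%) did. At an unadjusted p under 0.05 the count was 1 of 1 member, and 21 of the 59 tested.

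As no vehicle array held miR-193 well above background, its fold was set against a detection limit. By means of log2 signals taken before the floor, treated plasma was 3.1-fold above that limit. Over thioacetamide 2 and 3 against vehicle 1, the arrays in columns 3 and 4, it was 13.4-fold above. The bright arrays' signal is the sum of both probes, and the limit is the dim arrays' lowest signal of a single detected probe. Where the miRNA's own signal on a dim array was higher, that was used. In scaled units the limits were 20.9, 175 and 245 on vehicle 1 to 3, and the 3.1-fold is against their mean log2. On thioacetamide 3 the scaled sum of miR-193, 209, lay below the limit of vehicle 3. The sum of 2 undetected probes can exceed the limit of 1, so neither these folds nor those below are strict lower bounds. Such a fold carries no sampling error. It can exceed the fitted fold, here 3.02, which was taken after vehicle 1 had been raised to the floor.

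The call of miR-193 differed between fits with and without the slide side. With slide side as a block the difference was 1.91 (adjusted p = 0.0375), where 23.7% of the 59 passed. Within columns 1 and 2 it was 1.22 (adjusted p = 0.126), and within columns 3 and 4 it was 2.61 (adjusted p = 0.000842), where 62.7% of the 59 passed. In each of these within-side fits 1 group was a single array, vehicle 1 in columns 3 and 4 and thioacetamide 1 in columns 1 and 2, which was taken to vary like the other group. Since all treated arrays exceeded all vehicle arrays, the direction within each side was fixed. Without vehicle 1 the difference was 1.04 (adjusted p = 0.128) and without thioacetamide 1 it was 0.98 (adjusted p = 0.252). Over all alternatives with a value its adjusted p ranged from 0.000842 to 0.467.

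The other settings under which miR-193 passed were those without scaling and with spike-in scaling (37.3% of the 59 passed in each), the brightest probe (28.8%), Feature Extraction's total gene signal (16.9%) and array weights (69.5%). It did not pass with the 75th percentile over all probes (5.08%), quantile normalization (11.9%), the median of miRNAs on all arrays (27.1%), normexp (10.2%), a floor 4 times as high (18.6%) or 0.25 times as high (11.9%), Feature Extraction's detection call (10.3% of 87) or the median of spots (20.3%). Nor did it pass without any 1 animal, where the share of the 59 that passed was 13.6%, 15.3% and 20.3% without vehicle 1, 2 and 3, 42.4% without thioacetamide 1 and 8.47% without thioacetamide 2 or 3.

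**Figure D2:**
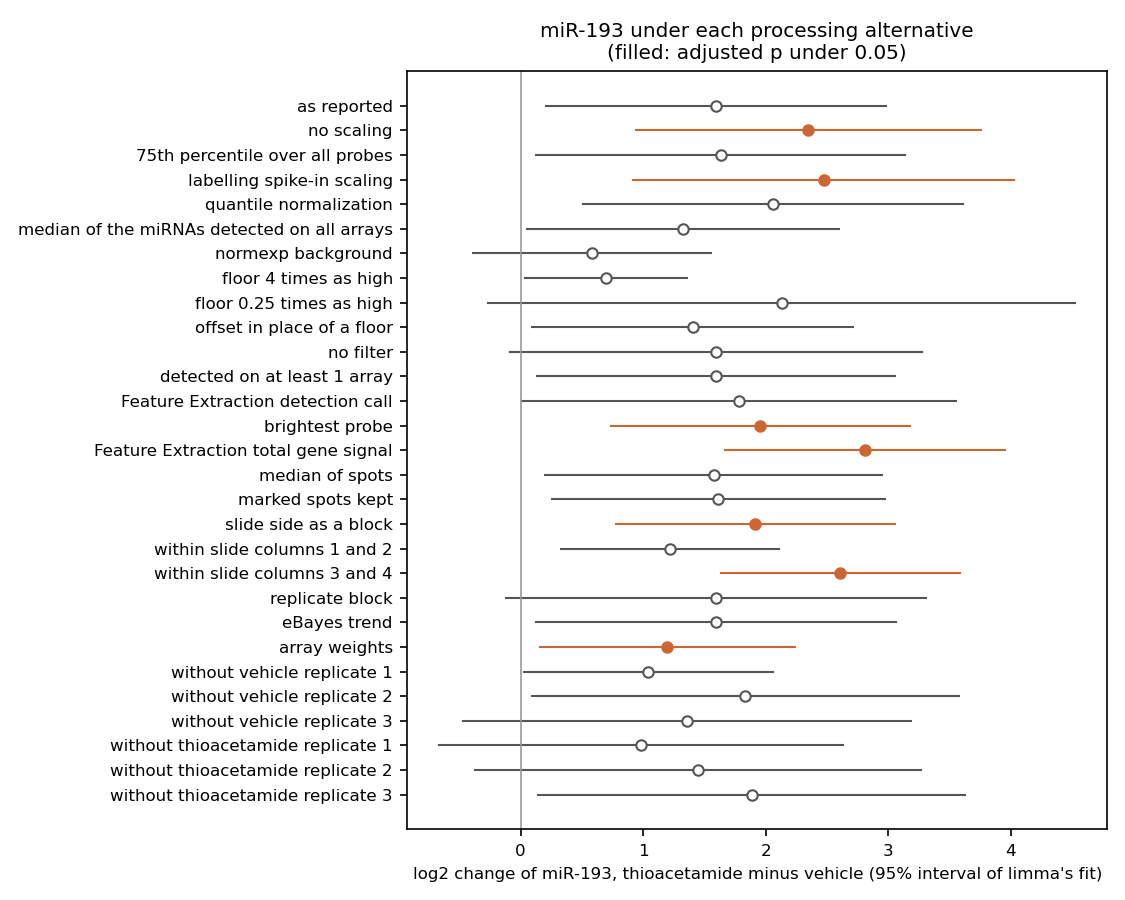
Log2 change of miR-193, thioacetamide minus vehicle, with the 95% interval of limma's fit, for the processing as reported and for 28 alternatives listed down the vertical axis; filled points have an adjusted p under 0.05. All 28 alternatives lie above 0, from 0.58 with normexp to 2.81 with Feature Extraction's total gene signal, and 7 pass.

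The tested miRNAs whose log2 signal followed that of miR-193 most closely over the 6 arrays were miR-30b-5p (Pearson's r = 0.96), miR-30e (r = 0.93) and miR-122* (r = 0.86). These values include the difference between the groups. Of the 3, miR-122*, from the opposite arm of the hairpin that gives miR-122, passed limma's threshold (log2 change 2.81, adjusted p = 0.0130), and miR-30b-5p (1.97, adjusted p = 0.0686) and miR-30e (0.65, adjusted p = 0.220) did not.

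miR-365, encoded near miR-193 on chromosome 10, was detected on thioacetamide 2 and 3. Its longer probe read 10.75, 45.4 and 52.9 intensity units on vehicle 1 to 3 and 241, 90.8 and 167 on thioacetamide 1 to 3. Before scaling, every treated array was higher than every vehicle array. Its shorter probe read 8.39, 53.3 and 57.3 in vehicle and 181, 36.4 and 73.2 in treated plasma, where thioacetamide 2 lay below vehicle 2 and 3. After scaling, the sums were 20.4, 127 and 176 against 186, 164 and 192. Vehicle 3 then exceeded thioacetamide 2, and the groups overlapped. The mean log2 level was 6.66 ± 1.01 in vehicle and 7.49 ± 0.12 in treated plasma (SD, n = 3 each). The difference of 0.83 was not tested for want of detections, and it was 0.27 without vehicle 1 and 0.29 without thioacetamide 1. Within columns 3 and 4 the difference was 1.95, with thioacetamide 2 and 3 8.49-fold above the detection limit of vehicle 1. Within columns 1 and 2 it was 0.31.

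miR-378, which lies within the gene of the transcriptional coactivator PGC-1β (Ppargc1b), showed the clearest split between the sides of the slide. Its longer probe read 1.46, -25.6 and -28.7 intensity units on vehicle 1 to 3 and -4.56, 129.5 and 163 on thioacetamide 1 to 3. Thioacetamide 1 lay within the vehicle range, and thioacetamide 2 and 3 lay above it. The shorter probe read -1.75, -31.2 and -43.3 in vehicle and -64.4, 77.1 and 95.8 in treated plasma, so that there thioacetamide 1 was the lowest array. Scaled sums were -0.31, -73.2 and -115 against -30.3, 267 and 208, so that 4 of the 6 arrays stood at the floor. The log2 difference of 1.57, with an SD of 1.37 among the treated arrays, came from thioacetamide 2 and 3. Within columns 3 and 4 it was 2.35, and the fold above the detection limit of vehicle 1 was 11.2. Within columns 1 and 2, where all 3 arrays were at the floor, it was 0. There the longer probe stood at the 55.8th percentile of never-detected probes on thioacetamide 1 and at the 22.4th and 24.5th on vehicle 2 and 3.

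miR-101b and miR-101a, which repress the histone methyltransferase Ezh2, differ at 1 base and gave different readings. The longer probe of miR-101b read 2.02, -27.1 and -31.5 intensity units in vehicle and 139, 90.7 and 108 in treated plasma. That of miR-101a read 4.41, -26.2 and -37.0 in vehicle and -93.4, 4.83 and 0.23 in treated plasma. Every treated array exceeded every vehicle array for miR-101b, and the groups overlapped for miR-101a. Thioacetamide 1 did not detect miR-101b, however. The reading of 139 there lay below that array's limit of 437, at the 90.6th percentile of never-detected probes. The base that differs lies inside both miRNAs' probes, which also differ in length (18 and 19 bases for miR-101b, 20 and 21 for miR-101a). The readings of the pair were not set against each other in a test, since signals of different probes have no common scale.

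The scaled sum of miR-101b was 4.47, -62.9 and -95.2 in vehicle and 81.1, 166 and 120 in treated plasma. These groups did not overlap either, as for 27 of the 677 miRNAs (3.99%) in the higher direction. Of the 8 members, 2 were so separated, miR-193 and miR-101b. Vehicle arrays all stood at the floor, and the treated mean was 6.87 ± 0.52 on the log2 scale (SD, n = 3). The difference of 1.35 is therefore set by the floor on one side, and without vehicle 1 it was 0.68. When miRNAs detected on at least 1 array entered limma's fit, all 4 detected members entered through treated arrays alone. miR-101b, with no spread among its floored vehicle arrays, then passed (adjusted p = 0.0363) and miR-193 (0.143), miR-365 (0.324) and miR-378 (0.228) did not, so that 1 of 4 members passed where 19.2% of 99 miRNAs did. With no filter 0 of 8 passed by limma, where 0.295% of the 677 did. In that fit limma gave miR-101b an adjusted p = 0.391 and an unadjusted p = 0.0101. At an unadjusted p under 0.05 the count was 1 of 8 members, miR-101b, and 24 of the 677 miRNAs. Thioacetamide 2 and 3 stood 6.73-fold above the detection limit of vehicle 1.

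Because the probes of a pair differ by 1 base, the longer minus the shorter signal on an array takes away whatever both read alike there. This measure was chosen after the signals were seen, and its size is not an abundance. For miR-193 it was 8.004, 21.8 and 25.5 intensity units on vehicle 1 to 3 and 427, 220.3 and 192.8 on thioacetamide 1 to 3. For miR-365 it was 2.36, -7.95 and -4.45 against 60.6, 54.4 and 93.7. For miR-378 it was 3.22, 5.65 and 14.6 against 59.8, 52.4 and 67.6. For miR-101b it was -0.15, -5.35 and -3.49 against 93.1, 52.8 and 66.3. In each of these 4 the 3 treated arrays exceeded the 3 vehicle arrays, thioacetamide 1 included, although it detected only miR-193. On thioacetamide 1 the difference was also 52.0 for miR-802, which no array detected, close to the 60.6 of miR-365 and the 59.8 of miR-378 there. The same separation was found for 68 of 674 miRNAs with probes of different length (10.1%), for 46 of the 99 detected on any array (46.5%) and for 22 of the 575 detected on none (3.83%). Of these shares that of the detected miRNAs is the nearest, but the 99 include miRNAs also detected on vehicle arrays. The 4 were detected on treated arrays alone, so a separation in this direction was largely given and is not support.

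**Figure D3:**
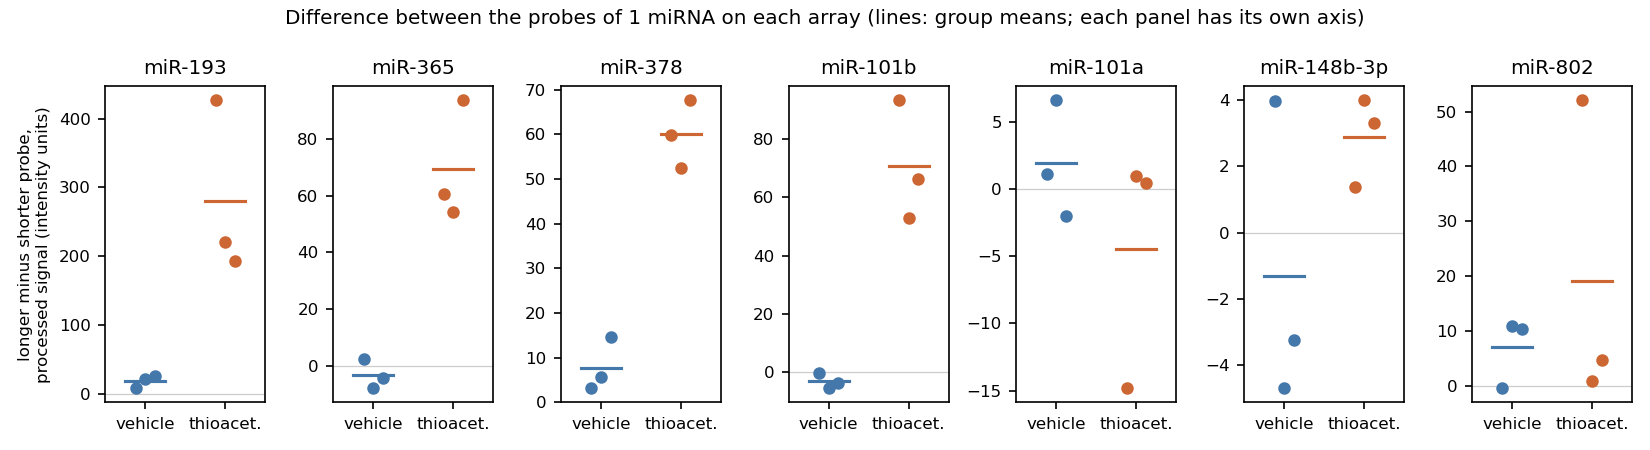
Signal of the longer minus that of the shorter probe, in intensity units, on each vehicle and thioacetamide array for the 7 miRNAs with a pair of probes; points are arrays, lines group means, and each panel has its own vertical axis. The treated points lie above the vehicle points for miR-193, miR-365, miR-378 and miR-101b and overlap them for miR-101a, miR-148b-3p and miR-802.

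The other 4 miRNAs gave no signal well above background. miR-148b-3p, of the miR-148 and miR-152 family that represses the DNA methyltransferase Dnmt1, read between -2.86 and 9.93 intensity units with its longer probe, on vehicle 3 and vehicle 1, and the treated arrays lay inside that range. miR-802, which liver and pancreas express, read below 0 with both probes on all 6 arrays, from -81.0 (shorter probe, thioacetamide 1) to -1.36 (longer probe, thioacetamide 2). miR-455 read 5.81, 41.0 and 47.0 in vehicle and 114, 8.75 and 12.6 in treated plasma. Its signal was higher on the 3 arrays in columns 1 and 2 than on the other 3, while its percentile among never-detected probes was alike throughout, at 90.3, 86.5 and 88.5 on vehicle 1 to 3 and 87.7, 87.9 and 84.1 on thioacetamide 1 to 3. The longer probe of miR-101a stood at percentiles 21.2, 14.8 and 15.8 on vehicle 2, vehicle 3 and thioacetamide 1, and at 85.3, 79.5 and 50.6 on vehicle 1, thioacetamide 2 and thioacetamide 3. For these 4 a change was not detectable at the signal these arrays give, which is not evidence that they were absent from plasma.

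The opposite arms of the 8 precursors were on the array too. Of these 8, miR-455* alone was detected, on thioacetamide 2 and 3 and on no vehicle array. Its probes summed to 12.4, 33.4 and 35.4 intensity units on vehicle 1 to 3 and 179, 56.8 and 95.02 on thioacetamide 1 to 3. All treated arrays were higher before scaling, while miR-455, from the other arm of the same hairpin, was detected on none. miR-152, the seed mate of miR-148b-3p, was detected on no array, with sums from -89.6 to 13.4.

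The hepatocyte list outside these 8 held 14 names, of which 12 were on the array, 8 were detected on any array and 5 were tested. On the array but not detected were miR-192*, miR-194, miR-203 and miR-22*. All 5 tested (miR-122 and its opposite arm, miR-192, miR-22 and miR-30a) rose by limma, with a median log2 change of 4.23, where 15.3% of the 59 tested miRNAs rose and their median was 0.45. The list was chosen with these results known and is not independent support. Of 7 erythrocyte miRNAs tested 0 were higher, 1 was lower and 6 did not pass, with a median of -0.81, and without scaling no miRNA of the 59 was lower; miR-144 was the one of 8 on the array not detected. Of 7 leukocyte miRNAs on the array 4 were tested, of which 1, miR-29a, was higher (log2 change 2.11). The other 3, miR-223 (0.03), miR-342-3p (-0.48) and miR-150 (-0.91), did not pass, and the median was -0.23. Summed scaled signals were 572 to 861 in vehicle and 1025 to 1513 in treated plasma, a rise that does not describe every miRNA of the list. On the array but not detected were miR-142-3p, miR-142-5p and miR-146a. Of 7 platelet and endothelial miRNAs 3 were tested and 0 passed by limma, with sums of 76.0 to 334 and 244 to 1056; miR-126, miR-126*, miR-221 and miR-222 were not detected. The part of these other cells in the signals of miR-193, miR-365, miR-378 and miR-101b was not tested.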

How the data were processed

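Plasma miRNAs were measured in 6 samples, 3 per group, each placed by the treatment in its title. The deposited intensity values are background-subtracted spot signals, which, per the submitters' processing notes, Feature Extraction 10.7.3.1 made, and they are not scaled between arrays; the deposited matrix equals them within 0.005 on every spot. No miRNA spot was saturated. Spots carrying an outlier mark (2126 over the arrays) and control spots were left out. Detection of a probe required that Feature Extraction marked more than 50% of its remaining spots as well above background (multiple 13, per the file headers), and detection of a miRNA that 1 of its probes was detected. Probe means were summed per miRNA, divided by the array's 75th percentile of those 12 probes that every array detected (from 8 miRNAs, erythrocyte ones among them, so a change they share is partly scaled away), raised to the 5th percentile of detected scaled sums, and log transformed. Scale factors ran from 0.626 to 2.27. Treatment was tested with limma 3.58.1 (R 4.3.3) over miRNAs detected on at least 3 arrays, with Benjamini-Hochberg adjustment and a threshold of 0.05; the fit was checked on simulated data. The p-values reflect how much the arrays within a group differed, which holds differences between animals, arrays and slide sides together. The number of animals limits the precision.

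Described by name are the 8 members, their other arms and seed mates, the hepatocyte list by counts, and the 3 tested miRNAs most like each member detected on at least 3 arrays. The rule for the members uses names and no signal, but it, the lists and the tests were chosen with earlier results of these data known. RefSeq sequences were matched to 607 of the 677 array names, by number and by the reverse complement of every probe. Leave-one-out fits rescaled the remaining arrays and kept the 59 tested miRNAs.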

Additional observations from a re-analysis of the deposited data

How the results depend on the processing

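miR-193 had a value in 28 of 29 alternatives; it could not be tested among miRNAs detected on all arrays, where no member remained. It was higher after thioacetamide in all 28 and past the threshold in 7: without scaling (log2 change 2.35, adjusted p = 0.0167), with labelling spike-in scaling (2.47, 0.0197), the brightest probe (1.96, 0.0349), Feature Extraction's total gene signal (2.81, 0.00523), slide side as a block (1.91, 0.0375), columns 3 and 4 alone (2.61, 0.000842) and array weights (1.198, 0.0439; the weights' estimation stopped before it converged). The members past the threshold, 0 as reported, were then 1 in each of these, and 1, miR-101b, with miRNAs detected on at least 1 array. Leaving out 1 animal gave 0.98 to 1.88 for miR-193, never past the threshold.

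Over all tested miRNAs the count of calls, 10 as reported, was 22 without scaling, 22 with spike-in scaling, 3 with the percentile over all probes, 16 (12 higher and 4 lower, against 9 and 1 as reported) with the median of miRNAs on all arrays, 7 (5 higher and 2 lower) with quantile normalization, 6 with normexp, 2 with no filter, 19 with miRNAs detected on at least 1 array, 2 with those detected on all, 17 with the brightest probe, 37 in columns 3 and 4 and 41 with array weights. In columns 1 and 2 limma gave 0, with 16 at an unadjusted p under 0.05; on each side 1 group is a single array, taken to vary like the other. Leaving out 1 animal gave 5 to 25. The median of the 59 changes shifted by 0.52 unscaled, 0.72 for the spike-in, -0.29 for quantiles, -0.42 for that median and -0.47 for normexp; relative to it miR-193 was 1.15 higher as reported and 1.38, 1.31, 1.90, 1.29 and 0.60 higher under these. The replicate block left the count at 10 and gave miR-193 an adjusted p = 0.2005 by limma. Deviations of same-numbered animals correlated at -0.70, -0.31 and -0.66. Their arrays always lay on opposite sides of the slide, so these correlations cannot show whether the numbers paired the animals.

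Of 147 values of the other 7 members, 27 moved by over 1 SD; 11 of these were of miR-101b, whose vehicle SD is 0 at the floor. Its difference ran from 0 to 3.35, that of miR-378 from 0 to 2.90 and that of miR-365 from 0.0237 to 1.95. The high background of columns 1 and 2 limits what these arrays show of dim miRNAs.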

Other observations

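Detection on 0 vehicle arrays and on 2 or 3 thioacetamide arrays was shared by 17 miRNAs. Besides miR-193, miR-365, miR-378, miR-101b and miR-455*, they were miR-122*, let-7a, miR-23b, miR-29c, miR-99a, miR-125a-3p, miR-125b-5p, miR-134, miR-200b, miR-429, miR-466b and miR-877. Of the 17, miR-193 and miR-122* were detected on all 3 treated arrays. miR-200b and miR-429 belong to 1 family, known from epithelial cells, and miR-99a and miR-125b-5p are encoded together with a let-7 miRNA. These miRNAs were picked out after their detection calls were seen, and thioacetamide 1, which had the highest background, detected only miR-193 and miR-122* among them.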
